A study of Homo sapiens with 2 samples.

Results

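The genes described are 2 groups of cell surface receptors and the secreted proteins that act on them: the fibroblast growth factor (FGF) receptors FGFR1, FGFR2, FGFR3 and FGFR4 with the ligand FGF2 and its carrier FGFBP1, and the receptors AXL, TYRO3 and MERTK with their ligand GAS6. They were chosen by name, with earlier results of these data known, and every probe set annotated with 1 of these symbols alone was taken. This gave 36 probe sets of 10 genes, out of 41097 probe sets of 19775 genes with a single symbol. Signals were compared between HARA-B4, the highly bone-metastatic subline, and HARA, the human squamous cell lung cancer line from which it derives. Both are established lines, grown in culture in the same serum-containing medium with no treatment. One array was hybridised for each line (n = 1), so no difference below has a replicate check or a p-value.

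FGF receptors are tyrosine kinases that bind FGFs together with heparan sulfate chains. They signal through the adaptor FRS2 to the RAS and ERK pathway, which in turn induces its own inhibitors of the Sprouty, SPRED and DUSP families. FGFBP1 releases FGF2 from heparan sulfate in the matrix. AXL, TYRO3 and MERTK form the TAM receptor family, whose ligands GAS6 and protein S carry vitamin K-dependent carboxylated residues. AXL is known in lung cancer cells for its link to motility and to resistance to other kinase inhibitors.

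Values are linear probe set signals as deposited, and differences are on the log2 scale, HARA-B4 minus HARA. A background level of 4.76 on the log2 scale, a signal of 27.1, was set from 165 probe sets for receptors of smell, taste and pheromones, which lung cells are taken not to use, and a signal under it was treated as equal to it. Each gene is represented by its brightest probe set, the one with the highest mean log2 signal, and is called at a difference of 2-fold or more. Of 11496 genes above background on at least 1 array, 899 (7.82%) were called, 416 (3.62%) higher and 483 (4.2%) lower in HARA-B4. The median difference over those genes was 0.01, with quartiles of -0.29 and 0.28. Probe sets of the same gene above background on both arrays had a within-gene SD of 0.30 in their log2 differences (4830 genes). This is spread between probe sets on 1 pair of arrays and does not measure variation between replicate arrays or cultures. Of 14 squamous epithelium markers listed, all 10 with a named probe set were above background on both arrays. Their summed signal was 27057 in HARA-B4 and 22675 in HARA, with KRT14 at 7345 in HARA-B4 and 3938 in HARA. The 10 had no common direction, with 6 positive and 4 negative differences, from -0.98 (DSC3) to 1.82 (PKP1, called higher). Above background on at least 1 array were 3 of 8 fibroblast markers, 1 of 6 endothelial, 1 of 5 blood cell, 1 of 5 osteoclast and 3 of 5 alveolar and glandular lung markers. Over all genes it was 11496 of 19775. Those outside the fibroblast list had low signals. PECAM1 read 50.4 in HARA-B4 and 50.6 in HARA, HBB 33.9 and 35.7, and TNFRSF11A 33.1 and 36.4. In the same order, NKX2-1 read 41.9 and 58.6, SFTPB 56.1 and 43.7, and SFTPC 25.4 and 36.8. Of the fibroblast list, COL1A1 was above background on both arrays, at 139.9 in HARA-B4 and 184.9 in HARA. FAP was above it in HARA-B4 only (at least 5.70-fold higher) and THY1 in HARA only (at least 2.35-fold lower in HARA-B4), while COL1A2, COL3A1, DCN, LUM and PDGFRB were at background in both lines.

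AXL was lower in HARA-B4 by at least 2-fold, and it was the 1 member called of 10. None was called higher. FGF2 was also lower, by less than 2-fold on its brightest probe set and by just over 2-fold on its other one. The other 8 members differed by -0.03 to 0.39 on their brightest probe sets. All 10 members were above background on at least 1 array, and 9 of them on both, beside 11496 and 10207 of all 19775 genes. The remaining member, MERTK, was only just over the level, at 27.7 in HARA. With the background 1 higher on the log2 scale, 9 members were above it on at least 1 array. The share called, 1 of 10, stands beside 7.82% of all genes. At 1.5-fold, 2 members were lower, AXL and FGF2, beside 21.3% of all genes called in either direction, and at 3-fold the count was 0, beside 2.57%. The median difference of the members was 0.14, against 0.01 over all genes.

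**Figure D1:**
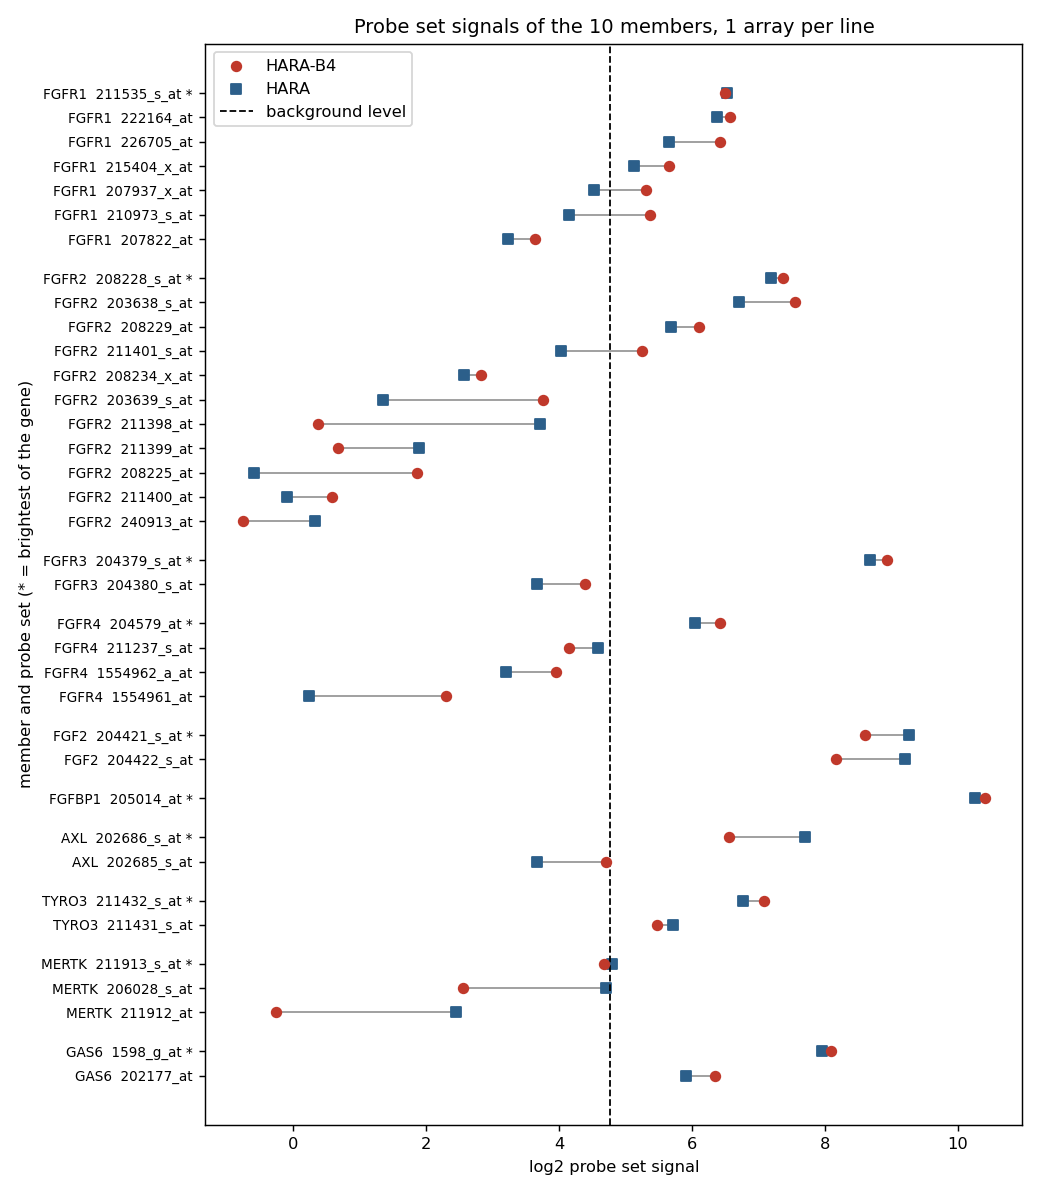
Log2 signal (x axis) of all 36 probe sets of the members (y axis, grouped by gene, with the brightest of each gene starred) in HARA-B4 (circles) and HARA (squares), with 1 array per line and the background level of 4.76 dashed. The circles of the starred AXL probe set and of both FGF2 probe sets lie left of their squares, and 15 probe sets lie at or below the dashed line on both arrays.

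AXL, the receptor with the strongest known affinity for GAS6, had a signal of 94.4 in HARA-B4, against 207.6 in HARA (probe set 202686_s_at). The difference was -1.14, or 2.20-fold lower in HARA-B4. Among all genes above background, 672 (5.85%) differed by this much or more in either direction. Among the 1994 genes within 0.5 of its mean log2 signal, the share was 6.67%. The other AXL probe set, 202685_s_at, was under background in both lines, at signals of 26.2 in HARA-B4 and 12.8 in HARA. At this background it gives no usable level, and the AXL call rests on 1 probe set. The measured difference of 202685_s_at was 1.04, higher in HARA-B4. With the background at the 75th percentile of the receptor probe sets, 3.42 on the log2 scale, 202685_s_at was above it on both arrays. The 2 AXL probe sets then lay in opposite directions. With each probe set held at background or above, the mean over both was -0.57, under 2-fold. In RNA from whole cultures, fewer cells with the transcript and less transcript per cell cannot be told apart.

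FGF2, the basic fibroblast growth factor, was bright in both lines and lower in HARA-B4. Probe set 204421_s_at read 390.5 in HARA-B4, against 614.3 in HARA (-0.65, 1.57-fold lower). Probe set 204422_s_at read 288.6 in HARA-B4, against 590.2 in HARA (-1.03, 2.04-fold lower). The mean of both was -0.84 ± 0.27 (SD of n = 2 probe sets on the same arrays). Lower by 2-fold or more were thus 2 of the 21 member probe sets above background, that of AXL and this one, beside 4.14% of all named probe sets called lower and 7.32% called in either direction. A difference of the size of the brighter FGF2 probe set, or larger, was found in 17.6% of all genes.

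The promoters of these lower members are shown from RefSeq (GRCh38.p14), each as the 250 bases before an annotated start, 5′ to 3′. Capitals mark GGGCGG or its reverse complement CCGCCC, the letters of the core of an SP1 site. The AXL window, upstream of the first of its 2 annotated starts, is chr19:41218973-41219222, plus strand, and the FGF2 window is chr4:122826581-122826830, plus strand.
AXL: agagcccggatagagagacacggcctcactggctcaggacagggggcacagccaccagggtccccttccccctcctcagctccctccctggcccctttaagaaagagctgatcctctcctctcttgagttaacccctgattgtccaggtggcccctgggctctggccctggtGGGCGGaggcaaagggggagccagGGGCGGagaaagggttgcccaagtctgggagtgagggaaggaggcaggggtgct
FGF2: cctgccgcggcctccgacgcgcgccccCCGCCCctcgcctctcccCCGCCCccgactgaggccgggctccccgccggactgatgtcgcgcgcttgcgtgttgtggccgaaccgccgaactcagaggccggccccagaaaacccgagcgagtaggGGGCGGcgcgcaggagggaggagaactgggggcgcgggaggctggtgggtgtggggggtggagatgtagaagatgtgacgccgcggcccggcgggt
The AXL window held 2 such matches with a GC content of 64.4%, and the FGF2 window held 3 with a GC content of 75.2%. The window before the second AXL start held no such match. Of 35116 human promoter windows of this length, 42.6% held at least 1 match, as did 9 of 16 windows of the 9 members in the table. The letters TGANTCA of an AP-1 site, read on both strands, were found in neither printed window and in 6.57% of all windows. GGAATG or CATTCC, letters of a TEAD site, were also in neither printed window, in 1 place of the window before the second AXL start and in 11.9% of all windows. A match is a description of letters and was not tied to the differences between the lines.

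FGFR1 was close to equal on its brightest probe set and higher in HARA-B4 on the others above background. Probe set 211535_s_at read 90.6 in HARA-B4 and 92.0 in HARA (-0.02), and 222164_at read 95.5 in HARA-B4 and 83.4 in HARA (0.20). The third, 226705_at, read 85.6 in HARA-B4, against 50.2 in HARA, a difference of 0.77 or 1.70-fold. The dimmer 215404_x_at read 50.3 in HARA-B4 and 35.0 in HARA (0.52). Over these 4 probe sets the mean difference was 0.37 ± 0.35 (SD, probe sets of 1 pair of arrays). A further pair, 207937_x_at and 210973_s_at, was above background in HARA-B4 only, at 39.5 and 41.3, against 23.1 and 17.8 in HARA. The last FGFR1 probe set was under background in both lines. With HARA set to background these are lower bounds of 1.46-fold and 1.52-fold, and the measured difference of 210973_s_at was 1.21, also reached with the background at the 75th percentile of the receptor probe sets. The size of the FGFR1 difference thus depended on the probe set, and none of the 4 above background on both arrays reached 2-fold.

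FGFR2, the receptor whose epithelial splice form binds FGF7 and FGF10, had 11 probe sets, of which 4 were above background on at least 1 array. All 4 were higher in HARA-B4. The brightest by mean log2 signal, 208228_s_at, read 165.7 in HARA-B4 and 145.8 in HARA (0.18). Probe set 203638_s_at, which has the highest single signal, read 188.1 in HARA-B4, against 104.4 in HARA (0.85, 1.80-fold). The third, 208229_at, read 68.8 in HARA-B4 and 51.2 in HARA (0.43). The fourth, 211401_s_at, was above background in HARA-B4 only, at 38.1, against 16.3 in HARA, which is at least 1.40-fold higher. Its measured difference was 1.22, also reached with the background at the 75th percentile of the receptor probe sets. The fold of FGFR2 ran from 1.14 to 1.80 over the 3 probe sets that were above background in both lines. The other 7 FGFR2 probe sets lay under background on both arrays, and their large log2 differences, up to -3.33 for 211398_at, carry no usable level.

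FGFR3 and FGFR4 each had 1 probe set above background, and neither differed much. FGFR3 read 488.4 in HARA-B4, against 409.5 in HARA (0.25). FGFR4 read 86.1 in HARA-B4, against 65.8 in HARA (0.39, 1.31-fold), the highest positive difference among the members' brightest probe sets, and 36.8% of all genes differed by as much or more. Taken by direction alone, 11 of the 12 probe sets of the 4 receptors above background were higher in HARA-B4, beside 49.1% of all named probe sets above background. Of the 12, 3 were above background in HARA-B4 only (207937_x_at, 210973_s_at and 211401_s_at), so the filter fixed their direction in advance. The 12 come from 4 genes and share the same pair of arrays, so they are not 12 independent measurements.

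FGFBP1, the extracellular carrier that mobilises FGF2, was bright in both lines and nearly equal. Its single probe set read 1362 in HARA-B4 and 1219 in HARA (0.16). A difference at least that large was found in 68.9% of all genes.

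GAS6 and TYRO3 did not share the lower value of AXL. GAS6, the ligand of all TAM receptors, read 271.2 in HARA-B4 and 249.3 in HARA on 1598_g_at (0.12). On 202177_at it read 81.4 in HARA-B4 and 59.9 in HARA (0.44). TYRO3 read 135.1 in HARA-B4 and 108.9 in HARA on 211432_s_at (0.31), but 44.3 in HARA-B4 and 52.5 in HARA on 211431_s_at (-0.25), so its probe sets lay in opposite directions.

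MERTK, which serves in the uptake of dying cells by phagocytes, was at the background level. Its brightest probe set, 211913_s_at, read 25.6 in HARA-B4 and 27.7 in HARA, just under and just over the level of 27.1. The second, 206028_s_at, read 5.90 in HARA-B4 and 26.1 in HARA, and the third 0.839 in HARA-B4 and 5.48 in HARA, all under background. No fold is given for MERTK, since no probe set measured it clearly in either line.

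**Figure D2:**
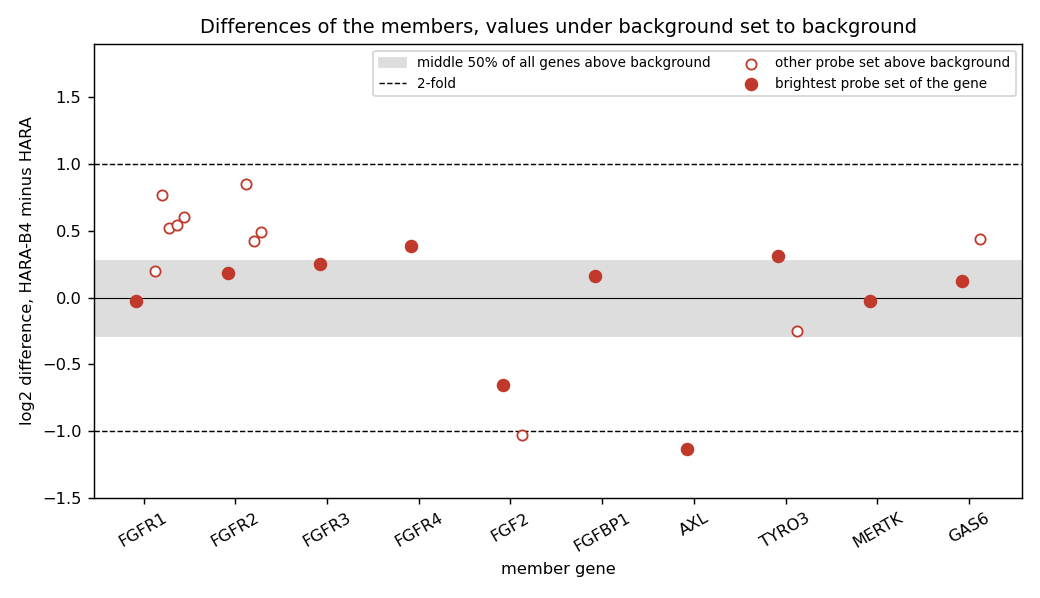
Log2 difference, HARA-B4 minus HARA (y axis), of each member's probe sets above background on at least 1 array, with values under background set to background. Filled points are the brightest probe set, open points the others, the grey band the middle 50% of all genes, and dashed lines 2-fold. AXL at -1.14 and the second FGF2 probe set at -1.03 lie past the lower dashed line, and none lies past the upper one.

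The chromosomal surroundings of the members were compared with the 12 genes on each side, in RefSeq order, that were above background on both arrays. FGF2 lies on chromosome 4 among genes that were mostly lower in HARA-B4. Of its 24 neighbours 19 had negative differences, beside 48.5% of all genes, with a median of -0.39, against 0.01 over all genes. The next gene in the annotation, NUDT6, which overlaps FGF2 in the RefSeq annotation, read 62.7 in HARA-B4 and 89.7 in HARA (-0.52). ANKRD50 (-1.46) and INTU (-1.03), which follow at positions 3 and 4, were the 2 neighbours called lower. The part of this setting in the FGF2 difference was not tested.

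The neighbours of AXL on chromosome 19 had no common direction. The 24 of them had a median of 0.10, with 13 positive and 11 negative differences. PLD3 (-1.36) was the 1 neighbour called lower and CYP2S1 (1.84), directly before AXL, the 1 called higher. HNRNPUL1, directly after AXL, read 591.2 in HARA-B4 and 667.8 in HARA (-0.18). For the other 8 members the neighbours' medians ran from -0.10 at GAS6, which has only 14 neighbours because it lies near the chromosome end, to 0.24 at FGFR4.

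**Figure D3:**
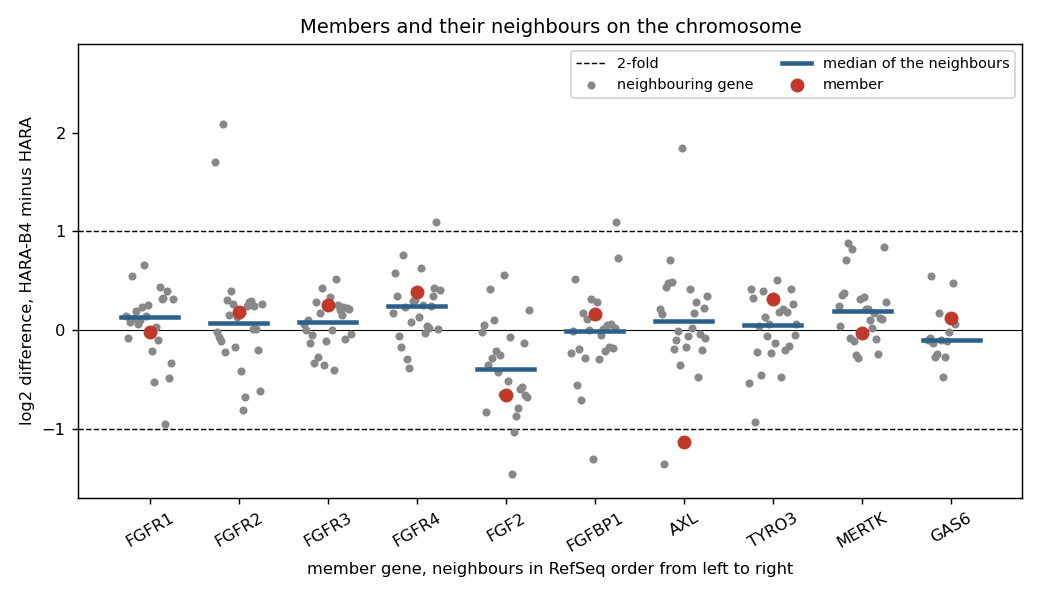
Log2 difference, HARA-B4 minus HARA (y axis), of each member (large points) and of its neighbours above background on both arrays (small points, in RefSeq order), with the neighbours' median as a bar and 2-fold as dashed lines. The FGF2 point at -0.65 and the bar of its neighbours at -0.39 both lie below 0, while AXL lies at -1.14 and its bar at 0.10.

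The other genes of FGF signalling were taken from lists set by function. These lists and those that follow were chosen with earlier results of these data known, so the shares beside them are descriptive. Together the FGF lists hold 62 genes with a named probe set, of which 39 were above background on at least 1 array. Of the 39, 3 were called higher and 6 lower in HARA-B4, beside 3.62% and 4.2% of all genes. Their median difference was -0.23, against 0.01 over all genes. FGF13, FGF19, ETV1 and SPRY1 were above background in HARA only, and FGF4, FGF11 and FGF22 in HARA-B4 only. The filter fixed the direction of these genes in advance. The median is the value of FGF19 with HARA-B4 set to background, and it was -0.14 with the background 1 higher on the log2 scale. The target genes held 4 of the 6 lower calls and the co-receptor list 2 of the 3 higher ones.

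Among the other FGF ligand genes, 14 of 21 were at background in both lines on their brightest probe set. FGF13 was the 1 ligand-family gene called of 7 above background, beside 7.82% of all genes. It encodes an intracellular FGF homologous factor that is not secreted as a ligand of these receptors. It read 23.6 in HARA-B4, under background, against 209.3 in HARA, so that it was at least 7.72-fold lower in HARA-B4. FGF5, a secreted ligand, was counted at background by its brightest mean, but 2 other probe sets were above background in HARA only. The brighter of them read 1.15 in HARA-B4, against 48.6 in HARA, which is at least 1.79-fold lower, a value picked out after it was seen. FGF1 was counted at background in the same way, with its probe set 205117_at above it in HARA-B4 only. That read 28.3 in HARA-B4, just over background, against 2.24 in HARA, which is at least 1.04-fold higher. The epithelial ligands FGF7 and FGF10 were at background in both lines.

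The calls among co-receptors and heparan sulfate enzymes were both higher in HARA-B4. Of 9 genes above background, 2 were called higher and 0 lower, beside 3.62% and 4.2% of all genes, and the median was 0.22. The differences were positive for 6 genes and negative for 3, beside 51.5% positive over all genes. The lowest was that of the sulfotransferase gene HS6ST2 (-0.80), whose 3 probe sets ran from -0.97 to -0.78. SDC4, a heparan sulfate proteoglycan of focal adhesions, read 643.8 in HARA-B4, against 213.0 in HARA (1.60, 3.02-fold). SULF2, an extracellular sulfatase that removes sulfate groups from heparan sulfate, read 123.2 in HARA-B4, against 48.2 in HARA (1.35, 2.56-fold), and its second probe set above background was also higher. The co-receptors KL and KLB of the endocrine FGFs were at background in both lines. Of 9 receptor adaptors above background, 1 was called lower and 0 higher, beside 4.2% and 3.62% of all genes. The lower one was SOS2, an exchange factor for RAS, at 126.2 in HARA-B4 and 281.0 in HARA (-1.16). Its 4 probe sets above background on at least 1 array ran from -1.22 to -0.71. The median of the adaptors was 0.25.

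Feedback and target genes of the FGF to ERK route stood mostly lower. Of 14 above background, 12 had negative differences, beside 48.5% of all genes, and the median was -0.70, against 0.01 over all genes. Among the 12, ETV1 and SPRY1 were above background in HARA only, so the filter fixed their direction in advance. In this list 4 genes were called lower and 1 higher, beside 4.2% and 3.62% of all genes. These genes also answer to ERK activity driven by other receptors. DUSP6, an ERK phosphatase, read 188.3 in HARA-B4, against 435.3 in HARA (-1.21), and its 3 probe sets ran from -1.58 to -1.21. DUSP4, a related phosphatase, read 71.3 in HARA-B4, against 303.1 in HARA (-2.09). ETV5, an ETS transcription factor, differed by -1.48, and by only -0.33 on another probe set. FLRT3, a membrane protein that binds FGF receptors, read 32.8 in HARA-B4, against 66.3 in HARA (-1.02). FLRT2, of the same family, lay the other way, at 948.9 in HARA-B4 and 282.9 in HARA (1.75), with all 3 of its probe sets higher. The Sprouty gene SPRY4 read 28.8 in HARA-B4 and 49.5 in HARA (-0.78), and SPRED2 153.1 in HARA-B4 and 265.5 in HARA (-0.79), neither reaching 2-fold.

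The splicing regulators that set the FGFR isoforms gave no call among 5 genes above background, beside 7.82% of all genes, with a median of 0.03. ESRP1, which favours the epithelial forms, read 684.2 in HARA-B4 and 700.9 in HARA (-0.03). PTBP1 differed by 0.03 and PTBP3 by 0.50. This PTBP3 value was the lowest of its 5 probe sets above background. The highest, 214697_s_at, read 1352 in HARA-B4 and 673.1 in HARA (1.01, 2.01-fold), past the 2-fold line.

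The genes around the TAM receptors gave 1 higher and 1 lower call among 12 above background, beside 3.62% and 4.2% of all genes, with a median of 0.07. LGALS3, the galectin described as a MERTK ligand, read 679.2 in HARA-B4, against 1906 in HARA (-1.49, 2.81-fold lower). PROS1, which encodes protein S, was low in both lines, at 32.5 in HARA-B4 and 46.4 in HARA (-0.51). GGCX, the carboxylase that matures GAS6 and protein S, read 304.6 in HARA-B4 and 243.1 in HARA on its brightest probe set (0.33). That was the only positive difference of its 5 probe sets above background, which ran down to -0.21, so GGCX had no common direction. Of the proteases that shed TAM receptors, ADAM10 differed by -0.64 and ADAM17 by 0.40. PIK3R1, a regulatory subunit of PI3-kinase, was the higher call, at 144.4 in HARA-B4 and 69.3 in HARA (1.06), with 0.52 on its second probe set above background.

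**Figure D4:**
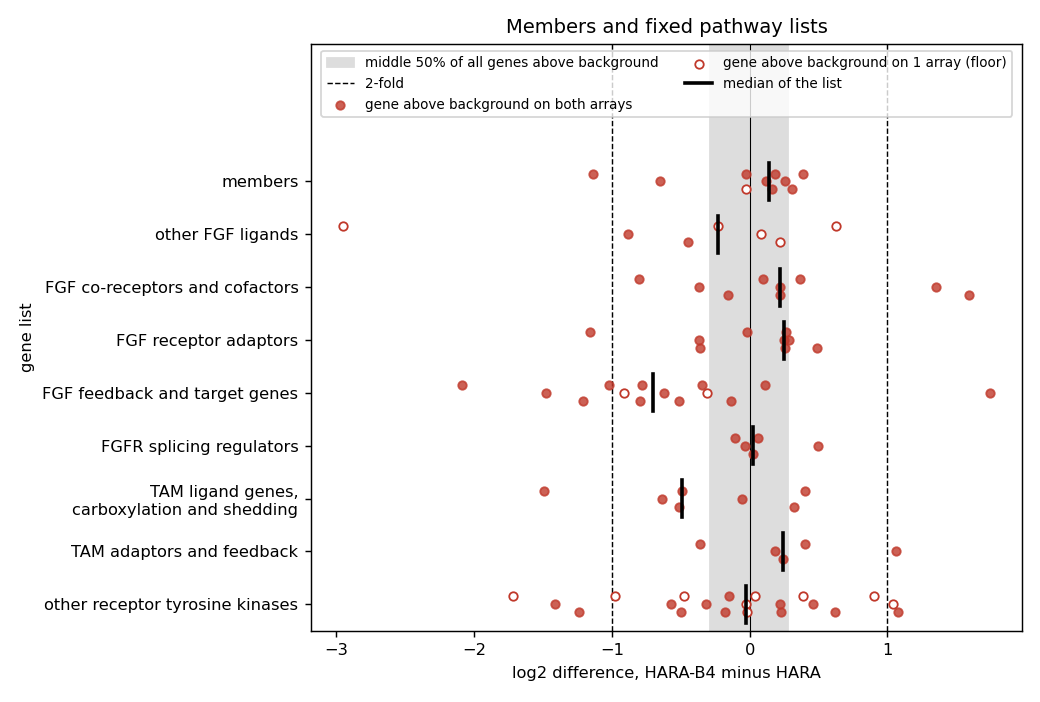
Log2 difference, HARA-B4 minus HARA (x axis), of the members and of the genes of each list above background (y axis), with filled points above background on both arrays, open points above it on 1 array, black bars the list medians, the grey band the middle 50% of all genes and dashed lines 2-fold. The bar of the FGF feedback and target genes lies at -0.70, that of the members at 0.14 and that of the splicing regulators at 0.03.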

How the data were processed

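Total RNA of HARA-B4 and HARA was labelled with biotin and hybridised to 1 Affymetrix array each, per the labels. The authors deposited linear intensities (signals) per probe set, made with Affymetrix Expression Console, per the submitters' processing notes. The version, the summary method, the scaling target and any detection call were not given in the sources used here. Without the outer 2% on each side, the mean signal was 115.9 in HARA-B4 and 115.6 in HARA, and values were used as deposited. Precision is limited by having 1 array per line.

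Of 54675 probe sets, 41097 had 1 symbol in the platform annotation, 1801 had several and 11777 had none. Symbols were updated by Entrez ID for 41043 of them through RefSeq (GRCh38.p14). The background level is the 95th percentile of the receptor probe sets over both arrays. Without replicates no test could be run, and a 2-fold difference is the only call. In each list, up to 6 called genes, or the 2 brightest where none was called, were named, and others named were chosen after their values were seen. The members and lists were chosen with earlier results of these data known. No gene of similar pattern is named, since over 2 arrays every pair of genes correlates at 1 or -1.

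The alternatives were median subtraction, quantile normalization, lowess trend removal, other background levels, other choices of probe set, log2(signal + 16), other folds and the mean in place of the median. Scripts were tested on simulated data. Python 3.11.15, numpy 2.4.6, pandas 2.3.3 and statsmodels 0.14.6 were used.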

Additional observations from a re-analysis of the deposited data

How the results depend on the processing

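The number of members called higher was 0 under all 13 alternatives. The number called lower was 1 (AXL) under 8 of them. It was 2 at 1.5-fold, where FGF2 joined AXL and 21.3% of all genes were called, and 0 at 3-fold (2.57% of all genes). It was also 0 with the mean of all probe sets as measured. There the AXL difference became -0.05 because a probe set under background in both lines enters it. With the mean of probe sets each held at background or above, the number was 0 (AXL at -0.57). Without the _x_at and _s_at probe sets, designs that can match more than 1 transcript, it was 0. Every AXL and FGF2 probe set is of these designs. The FGF2 difference ran from -0.84 to -0.63 over its 9 alternatives and was negative in each. The FGFR1 difference was 0.55 with the mean of all 7 probe sets as measured, 3 of them under background on at least 1 array. It was 0.37 with each held at background or above, and 0.20 without the _x_at and _s_at probe sets. FGFR2 was 0.85 with the probe set of highest signal. This alternative and the mean with values held at background were chosen after seeing the data. The median of the FGF genes beside the members ran from -0.25 to -0.14 over 11 alternatives, and that of the TAM genes from -0.08 to 0.22, being negative with either mean of all probe sets and with the mean in place of the median. No paired analysis was possible because each line has 1 array. Signals near the background level, as for MERTK, limit what can be compared.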

Other observations

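Other receptor tyrosine kinases were called in both directions. Of 33 with a named probe set, 21 were above background on at least 1 array, 2 of them called higher and 3 lower in HARA-B4, beside 3.62% and 4.2% of all genes, with a median of -0.03, against 0.01. MET, the receptor of hepatocyte growth factor, read 619.0 in HARA-B4, against 1457 in HARA (-1.24), and its 4 probe sets ran from -1.64 to -0.73. MST1R, the related receptor of macrophage-stimulating protein, read 35.5 in HARA-B4, against 94.5 in HARA (-1.41). ERBB4, a neuregulin receptor, was above background in HARA only and at least 3.28-fold lower in HARA-B4. EPHA4, an ephrin receptor, was above background in HARA-B4 only and at least 2.06-fold higher. PTK7, a Wnt co-receptor, read 74.1 in HARA-B4, against 35.1 in HARA (1.08), with a second probe set just above background in HARA only. IGF1R differed by 0.46 on its brightest probe set and by 1.13 on the probe set with the highest signal.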
